A study of Mus musculus with 48 samples.

Results

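The genes described here are 40 mouse genes of the heat shock response, of cytosolic and mitochondrial protein folding and of the response to cooling. They were chosen by what the genes are known to do, not by a threshold on their values, but with earlier results of these data known. The genes were looked up in the count table of jejunum RNA through their Ensembl identifiers. All 40 of 40 were found and passed the filter on low counts, among 15646 genes tested and 55401 gene identifiers in the table. They comprise 7 genes of the HSP70 and HSP110 chaperones, the HSP60 and HSP10 pair, 11 genes of HSP90 and the proteins that work with it, 7 J-domain co-chaperones, 2 BAG co-chaperones, 3 small heat shock proteins, 2 heat shock factors, 3 subunits of the CCT chaperonin, the collagen chaperone Serpinh1 and the cold-inducible RNA-binding proteins Cirbp and Rbm3.

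Jejunum, the middle stretch of the small intestine, was taken from mice with the genotype Bmal1iec-/- (called knockout below) and from mice with floxed alleles and no reported deletion, bmal1fl/fl (called control), so both genotypes carry the floxed alleles. Tissue was collected at 6 circadian times (CT), every 4 h from CT1 to CT21, with both genotypes in constant darkness, so that times from CT12 on fall in the subjective night, when mice are active. There were 23 knockout and 24 control libraries, 4 per genotype and time except knockout CT9 with 3 (replicates 2, 3 and 4). The study asks what the clock of the intestinal epithelium does for metabolic functions of the intestine. The deletion is aimed at epithelial cells, whereas the RNA is from whole tissue, which keeps muscle, nerve, stromal and immune cells with an intact gene. The labels give neither age nor sex, do not say which promoter drove the recombinase and do not say whether each library came from a separate mouse, so the spread behind each p-value is that between libraries and may in part be technical.

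Chaperones bind unfolded or partly folded proteins and help them reach, keep or regain their shape. When unfolded proteins accumulate, as on heating, heat shock factor 1 (HSF1) forms trimers and binds heat shock elements, repeats of the letters GAA and TTC in alternating orientation, and raises transcription of HSP70, HSP110, HSP90, HSP60 and several co-chaperones. CIRBP and RBM3 mRNAs respond the other way, rising with mild cooling. In mouse liver and in cultured cells, the daily cycle of body temperature is known to drive rhythms of both groups, which makes them a common readout of systemic daily signals beside the local clock that BMAL1 runs.

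The targeted gene separated the genotypes by its daily profile. Arntl, which encodes BMAL1, averaged 27.3, 31.4, 28.2, 31.2, 30.5 and 30.9 CPM in knockout, listed like all such sets of 6 values below from CT1 to CT21, and 75.5, 30.4, 10.4, 11.5, 47.0 and 78.4 CPM in control, where CPM is the read count scaled to a common library size. Its 24-h amplitude was 0.04 ± 0.07 in knockout and 1.61 ± 0.07 in control on the log2 scale (± SE), and its rhythms differed (adjusted p 2.41e-16). Its mean over all times differed by -0.09 (adjusted p 0.314), and this checks nothing, since counts are summed over the whole gene and a transcript without the deleted stretch may still be counted. Library totals ranged from 4.79 to 6.91 M counts in knockout and from 4.34 to 6.06 M in control. Across all genes 5 libraries stood apart from the rest, with an interquartile range of relative log expression between 0.600 and 1.12 against at most 0.476 in the others: knockout CT1 replicates 1, 2 and 3, knockout CT21 replicate 4 and control CT21 replicate 1. For the chaperones themselves 2 further libraries stood apart, both chosen after their values were seen. Control CT9 replicate 4 was high, with a median deviation of the members from their group means of 0.26 on the log2 scale. Control CT13 replicate 3 was low, at -0.36, and all other libraries lay between -0.19 and 0.19. Of 40 members, 33 were above their group mean in the first and 34 below it in the second. Counts alone do not single these libraries out, since control CT13 replicate 2 had 34 above and knockout CT21 replicate 1 had 34 below. The clock gene Nr1d1 placed control CT9 replicate 4 and control CT13 replicate 3 near the other libraries of their labelled time, at 117 CPM in the first against 111, 119.0 and 192 CPM in the other control CT9 libraries, and at 29.3 CPM in the second against 30.1, 44.9 and 45.2 CPM in the other control CT13 libraries. For the clock gene Dbp the first was lowest of its time, at 57.2 CPM against 72.7, 80.8 and 98.2 CPM. The second had 31.5 CPM of Dbp against 17.0, 26.8 and 32.8 CPM.

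Most of these genes followed the time of day in both genotypes. A 24-h rhythm, tested with cosine and sine terms and called at an adjusted p below 0.05 over all genes tested, was present for 23 of 40 members in knockout, where 15% of all genes were called, and for 30 of 40 in control, where 21.1% were called. Both genotypes together had 22 of the 40, against 7.28% of all genes. Peaks fell in the window from CT12 to CT20 for 21 members in knockout, a pattern that 3.42% of all genes had, for 28 members in control, against 8.78%, and for 21 in both, against 2.15%. The group mean was highest at CT13 or CT17 for 15 and 15 members in knockout, and for 27 and 4 members in control. An F test of equal means over the 6 times, which assumes no shape, called 23 members in knockout (12.8% of all genes) and 28 in control (15.7%).

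**Figure D1:**
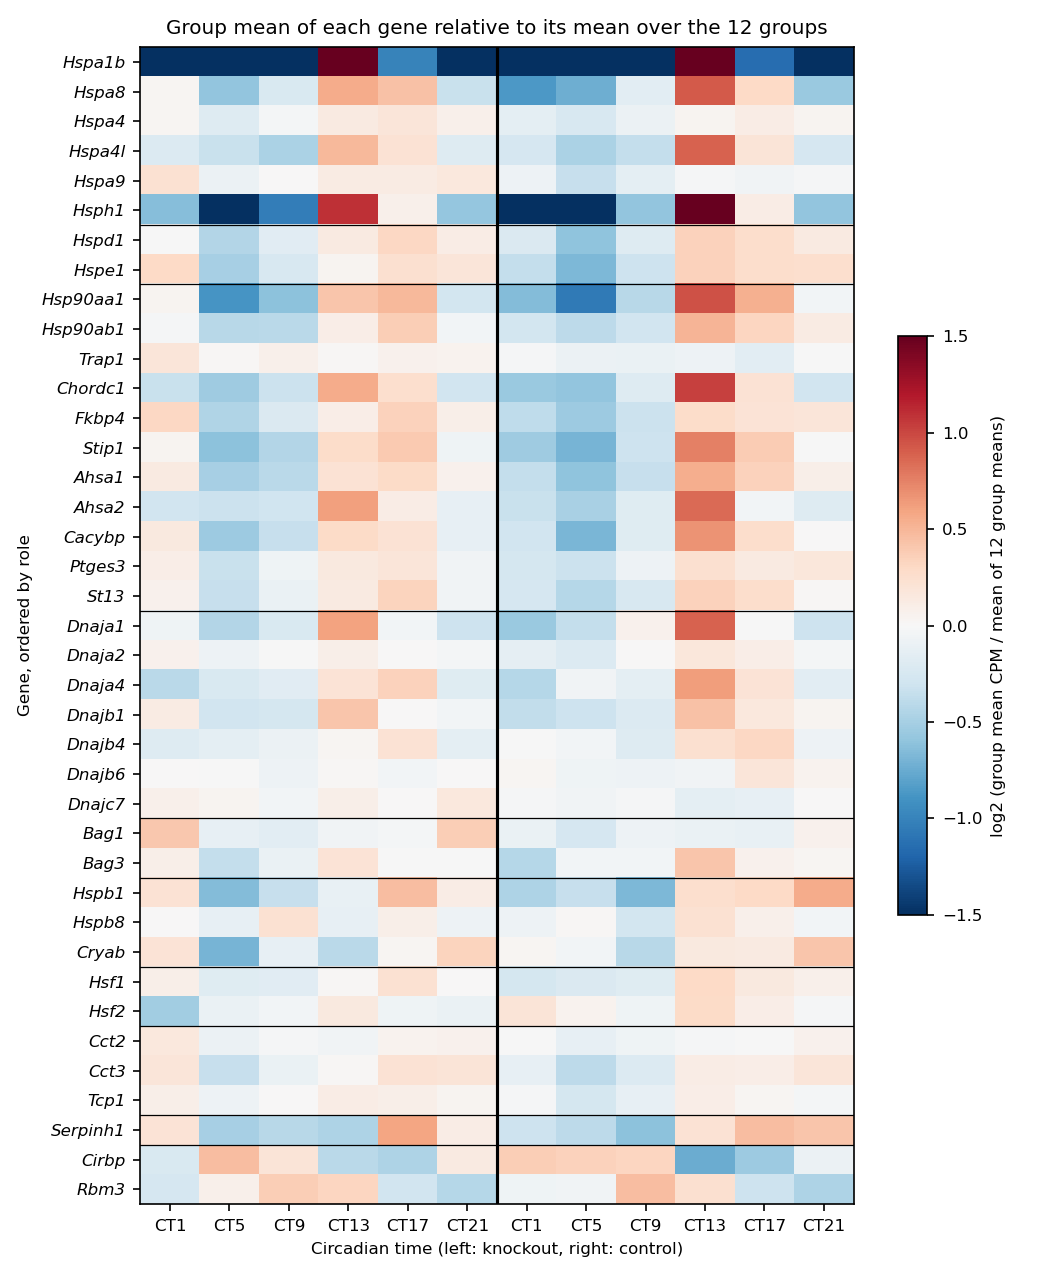
Each row is a gene and each column a genotype and time group, with the 6 knockout groups left and the 6 control groups right. Colour is the log2 ratio of the group's mean CPM to the gene's mean over the 12 groups, cut at ±1.5, and horizontal lines separate the roles. Red gathers at CT13 and CT17 in both genotypes for most HSP70 and HSP90 rows and for Hspd1, while Hspe1 in knockout is highest at CT1. Among the J-domain rows it lies mainly at CT13, in Dnaja1 and Dnajb1. For the cold-inducible genes at the bottom it lies at earlier times. Hspa1a is left out because of its low counts.

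Promoters of 4 members are shown here because the element that HSF1 reads can be set beside their daily profiles. Windows of 300 bases, 250 before and 50 after the start, were available from RefSeq (GRCm38.p6) for 32 of the 40 members. No entry was present for Hspa8, Hspa9, Hsp90aa1, Hsp90ab1, St13, Cryab, Hsf1 and Rbm3. A heat shock element of 3 units, GAANNTTCNNGAA or TTCNNGAANNTTC on either strand, occurred in at least 1 window of 5 of these 32 members (15.6%), namely Hsph1, Hspe1, Hspd1, Chordc1 and Dnajb6, against 0.662% of 27025 genes with a window. Its 2-unit form, GAANNTTC or TTCNNGAA, which every 3-unit match also contains, occurred in 15 of 32 members (46.9%), against 17% of all genes. The E-box CACGTG, the letters bound by CLOCK and BMAL1, occurred for Hsph1, Hspd1 and Hsf2, 3 of 32 members (9.38%), against 8.09% of all genes. Hspe1 and Hspd1 start next to each other on opposite strands, and the window of Hspe1 overlaps the Hspd1 window that holds the element, while the other Hspd1 window has none. Matched letters are a description of the window and not evidence of binding. Sequences run 5′ to 3′ on the strand of the gene, and capitals mark the 2-unit match of Hspa1b and the run of 3 or more units in the other genes. A further 2-unit match in each of the Hsph1 and Chordc1 windows is left in lower case. Hspa1b is shown as the gene with the largest control amplitude and only a 2-unit match, Hsph1 and Chordc1 as strongly rhythmic genes with 3 or more units, and Hspe1 as the mitochondrial partner with 4 units in a row.
Hspa1b: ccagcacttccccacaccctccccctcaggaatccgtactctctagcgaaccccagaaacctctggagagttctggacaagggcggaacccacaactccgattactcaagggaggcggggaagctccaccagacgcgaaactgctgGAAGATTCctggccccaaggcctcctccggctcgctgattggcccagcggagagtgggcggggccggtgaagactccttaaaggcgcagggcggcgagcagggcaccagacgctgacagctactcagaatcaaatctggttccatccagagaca
Hsph1: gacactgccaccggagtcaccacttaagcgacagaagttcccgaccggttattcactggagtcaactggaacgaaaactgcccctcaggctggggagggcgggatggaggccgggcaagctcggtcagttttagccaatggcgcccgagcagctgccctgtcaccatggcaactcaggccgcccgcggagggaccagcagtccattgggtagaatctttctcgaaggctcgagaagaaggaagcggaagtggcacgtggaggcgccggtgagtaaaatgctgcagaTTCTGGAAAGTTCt
Hspe1: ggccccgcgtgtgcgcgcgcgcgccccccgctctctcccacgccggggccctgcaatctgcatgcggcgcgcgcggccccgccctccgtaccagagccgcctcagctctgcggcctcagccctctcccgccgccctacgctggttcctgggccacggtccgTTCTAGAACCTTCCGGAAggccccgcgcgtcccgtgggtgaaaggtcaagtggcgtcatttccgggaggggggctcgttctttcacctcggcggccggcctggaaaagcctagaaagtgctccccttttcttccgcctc
Chordc1: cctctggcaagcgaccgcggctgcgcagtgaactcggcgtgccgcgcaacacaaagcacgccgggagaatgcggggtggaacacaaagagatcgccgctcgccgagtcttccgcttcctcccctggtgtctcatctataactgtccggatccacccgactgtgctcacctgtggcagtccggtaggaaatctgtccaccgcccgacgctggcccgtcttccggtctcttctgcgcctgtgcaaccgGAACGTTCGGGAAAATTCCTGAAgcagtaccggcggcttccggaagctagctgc
In genome coordinates these windows are chr17:34959189-34959488 on the minus strand for Hspa1b, chr5:149636287-149636586 on the minus strand for Hsph1, chr1:55087898-55088197 on the plus strand for Hspe1 and chr9:18292017-18292316 on the plus strand for Chordc1. The match of Hsph1 lies 37 to 49 bases after the start, and that of Hspe1 ends 72 bases before it. Dnajb6, a J-domain co-chaperone that also holds a 3-unit element, passed no test of rhythm in either genotype with all libraries (adjusted p 0.926 in knockout and 0.0706 in control). Its rhythm in control was called without the 5 libraries that stood apart.

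Hspa1a and Hspa1b, the stress-inducible HSP70 genes, had the largest daily amplitudes. They are neighbours on chromosome 17 (ENSMUSG00000091971.3, chr17:34969190-34972156, minus strand, and ENSMUSG00000090877.3, chr17:34956436-34959238, minus strand, mm10), and 296 of 300 bases of their promoter windows are equal. As background, their coding sequences are nearly the same, so the split of reads between them is uncertain, and their transcripts were not compared here. At CT13 the knockout libraries had 22.4, 45.9, 13.4 and 41.2 CPM of Hspa1b and the control libraries had 45.3, 59.8, 7.49 and 79.6 CPM. All CT13 libraries but 1 control library, replicate 3, were above every library of the other times in both genotypes. Over the day Hspa1b averaged 2.79, 1.44, 1.19, 30.7, 4.32 and 2.56 CPM in knockout and 1.95, 1.59, 2.93, 48.0, 3.95 and 2.71 CPM in control. Its amplitude, the log2 distance from the middle of the fitted curve to its peak, was 2.06 ± 0.49 in knockout (adjusted p 0.00239) and 2.65 ± 0.52 in control (adjusted p 9.94e-06). Fitted peaks were CT13.6 in knockout and CT13.4 in control, and no difference between the rhythms was detected (adjusted p 0.936). Hspa1a, the weaker copy, averaged 0.584, 0.321, 0.490, 9.98, 1.48 and 0.699 CPM in knockout and 0.873, 0.683, 0.751, 11.4, 1.16 and 1.10 CPM in control. Outside CT13 it lay near the floor of 3 counts, 0.434 to 0.692 CPM, and 2 knockout libraries had no count, CT1 replicate 2 with a floor of 0.627 CPM and CT5 replicate 4 with a floor of 0.565 CPM. Its amplitude, 2.72 ± 0.56 in knockout and 2.24 ± 0.46 in control, is therefore set in part by how the fit treats low counts. Hspa1a also shares 19% of its exon bases with Gm20481 on the opposite strand.

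Hsph1, the HSP110 protein that recharges HSP70 with ATP, had a clear night peak with a lower CT13 mean in knockout (ENSMUSG00000029657.15, chr5:149614287-149636376, minus strand). The CT13 knockout libraries had 228, 271, 172 and 294 CPM, against 477, 482, 163 and 536 CPM in the CT13 control libraries. The 4 knockout values lay within the control range, and the difference of -0.78 (SE 0.40, adjusted p 0.371) did not pass. Its group means were 72.8, 34.1, 55.0, 241, 119 and 75.6 CPM in knockout and 37.4, 36.2, 75.2, 414, 122 and 74.8 CPM in control. Amplitudes were 1.04 ± 0.22 in knockout (peak CT15.3, adjusted p 0.00439) and 1.65 ± 0.22 in control (peak CT14.2, adjusted p 6.93e-07).

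Hspa8, the constitutive HSC70 and per unit of exon length the most abundant member in knockout, followed the same course. Its level per length was 338 CPM per kb in knockout and 321 CPM per kb in control, beside 315 and 333 CPM per kb for Hsp90ab1, and the lowest member on that scale was Hsf2 at 0.689 and 0.790 CPM per kb. Hspa8 averaged 1442, 943, 1213, 2086, 1919 and 1122 CPM in knockout and 784, 852, 1268, 2683, 1746 and 960.5 CPM in control. CT13 knockout libraries had 2200, 2069, 1740 and 2335 CPM and CT13 control libraries had 3038, 3046, 1781 and 2866 CPM. Amplitudes were 0.44 ± 0.10 in knockout (adjusted p 0.00611) and 0.86 ± 0.10 in control (adjusted p 9.27e-09). Among the members Hspa8 came closest to a difference in rhythm, with an adjusted p of 0.125, and it passed at 0.0386 when knockout CT21 replicate 1 was left out. Hspa4, another HSP110-type exchange factor, had small rhythms in both genotypes (amplitude 0.16 ± 0.04 in knockout, adjusted p 0.0102, and 0.18 ± 0.04 in control, adjusted p 0.00227). Hspa4l, a relative of Hspa4, had an amplitude of 0.37 ± 0.14 in knockout (adjusted p 0.116, not called) and 0.56 ± 0.14 in control (adjusted p 0.0057), with an adjusted p of 0.906 for the difference. Hspa9, mortalin, the HSP70 of the mitochondrial matrix, passed no rhythm test with all libraries (adjusted p 0.164 in knockout and 0.067 in control). Without the 5 libraries that stood apart its rhythm in control was called.

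**Figure D2:**
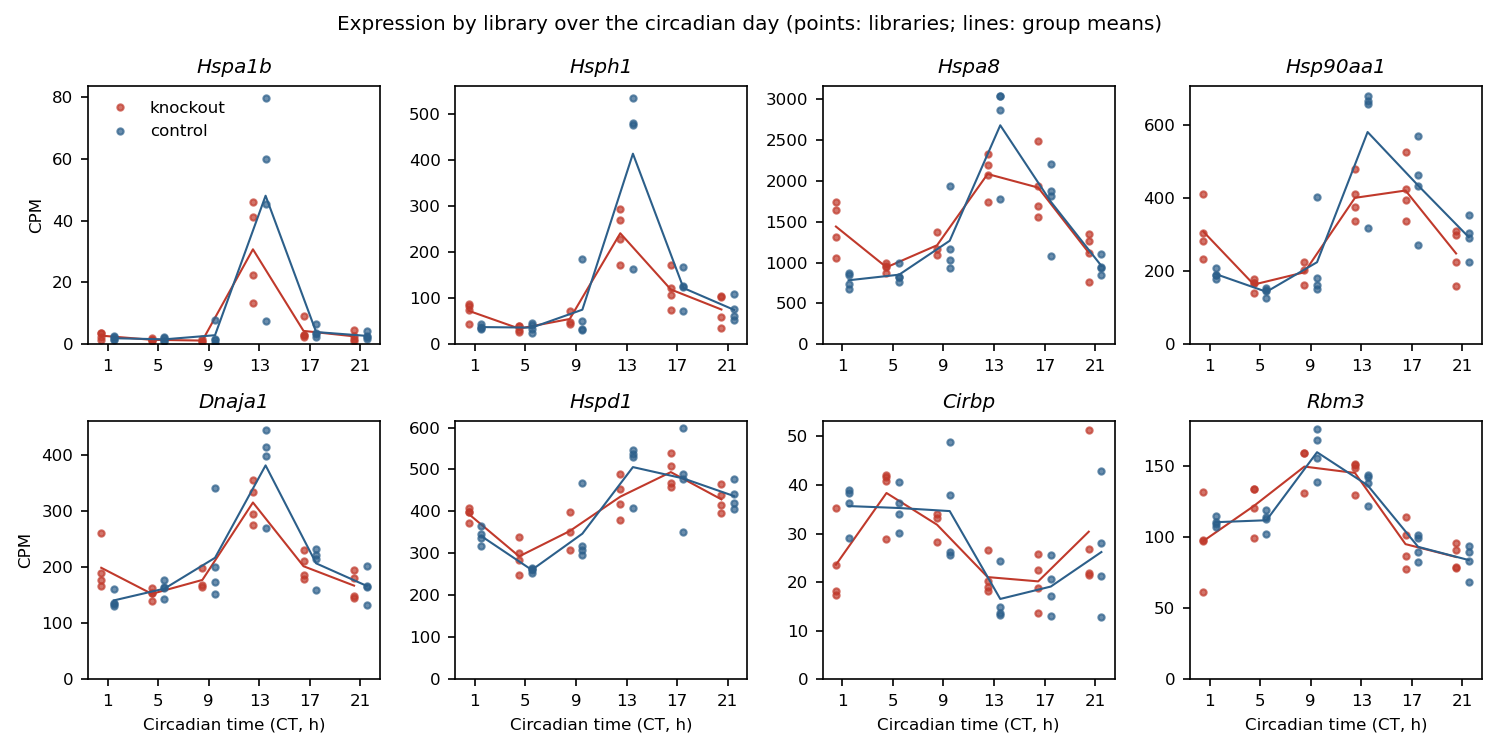
CPM (vertical axis, linear from 0) of 8 genes against circadian time, with each library as a point, group means joined by lines, and knockout in red drawn left of control in blue. Hspa1b, Hsph1, Hspa8, Hsp90aa1 and Dnaja1 are highest at CT13 in control, with 1 control library at CT9 high and 1 at CT13 low in several panels. Cirbp has its lowest means at CT13 and CT17, and Rbm3 its highest at CT9, in both genotypes.

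Hspd1 (HSP60) and its lid Hspe1 (HSP10), which form the folding chamber of mitochondria, were rhythmic in both genotypes. Hspd1 averaged 394, 293, 353, 435, 494 and 429 CPM in knockout and 341, 260.4, 347, 506, 479 and 437 CPM in control. Its amplitude was 0.32 ± 0.06 with a peak at CT17.5 in knockout (adjusted p 0.000633), and 0.45 ± 0.05 with a peak at CT16.4 in control (adjusted p 1.25e-07). Hspe1 averaged 120.2, 69.5, 82.7, 101, 115 and 111 CPM in knockout and 76.2, 61.3, 78.7, 124, 118 and 117 CPM in control. The fitted peak of Hspe1 was CT19.5 in knockout and CT16.7 in control. Without the 5 libraries that stood apart it was CT17.0 in knockout and CT16.3 in control.

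HSP90 and its partners were nearly all rhythmic, Trap1 being the exception in each genotype. The test called 10 of 11 genes in knockout, against 15% of all genes, and 10 of 11 in control, against 21.1%. Hsp90aa1, the inducible HSP90, showed the group's largest amplitude. Its CT13 libraries had 376, 410.1, 337 and 480.2 CPM in knockout, against 667, 659, 319 and 679 CPM in control. Hsp90aa1 averaged 309, 163, 197, 401, 421 and 248.5 CPM in knockout and 192, 144, 225, 581, 435 and 293 CPM in control. The amplitude was 0.56 ± 0.12 (peak CT17.0) in knockout and 0.94 ± 0.12 (peak CT15.5) in control. Hsp90ab1, the constitutive form, had amplitudes of 0.34 ± 0.08 in knockout and 0.45 ± 0.08 in control. Chordc1, a HSP90-binding zinc protein whose window holds a run of 5 units, averaged 42.1, 36.5, 42.4, 77.5, 62.9 and 43.3 CPM in knockout and 36.0, 35.1, 46.3, 107, 61.3 and 43.4 CPM in control.

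The cochaperones that load HSP90 or time its cycle were lowest at CT5 and highest in the subjective night in both genotypes. Stip1, the adaptor that joins HSP70 to HSP90, averaged 99.8, 63.4, 71.8, 118, 128 and 92.7 CPM in knockout and 67.3, 60.1, 78.3, 164, 127 and 96.6 CPM in control. Ahsa1, which stimulates the ATPase of HSP90, averaged 80.8, 52.2, 55.7, 85.6, 89.8 and 76.8 CPM in knockout and 57.4, 48.5, 57.8, 108, 93.9 and 78.1 CPM in control. The 2 genes had their highest mean at CT17 in knockout and at CT13 in control. Fkbp4, an immunophilin of steroid receptor complexes, averaged 333, 197, 231, 287, 342 and 285 CPM in knockout and 205, 184, 214, 325, 309.9 and 305 CPM in control. Cacybp, a HSP90 partner that also binds SIAH1, averaged 53.4, 33.2, 38.0, 59.1, 56.4 and 44.5 CPM in knockout and 39.8, 30.2, 42.7, 77.1, 58.4 and 48.6 CPM in control. Ptges3, the cochaperone p23, averaged 99.9, 73.9, 89.1, 103, 106 and 90.02 CPM in knockout and 78.0, 74.7, 88.2, 110.2, 103 and 105 CPM in control. Each of the 5 had a CT1 mean above its CT9 mean in knockout. Amplitudes of these 5 ran from 0.18 ± 0.05 (Ptges3) to 0.43 ± 0.08 (Stip1) in knockout, and from 0.29 ± 0.05 (Ptges3) to 0.69 ± 0.08 (Stip1) in control. Ahsa2 and St13 were rhythmic in both genotypes as well, with amplitudes of 0.40 ± 0.09 and 0.24 ± 0.06 in knockout and 0.53 ± 0.10 and 0.38 ± 0.06 in control. Ahsa2 shares 47.2% of its exon bases with Usp34 on the opposite strand, and the strand setting of the counting is not given, so its value is uncertain.

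The J-domain co-chaperones, which hand clients to HSP70, were divided. In knockout 1 of 7 genes was rhythmic, against 15% of all genes, so no excess can be read from the knockout count. In control 4 of 7 were, against 21.1% of all genes. Dnaja1 alone was rhythmic in both genotypes, and Dnaja2, Dnaja4 and Dnajb1 were called in control and not in knockout, a difference that was itself tested and not detected for any of them (adjusted p 0.321, 0.945 and 0.728). Dnaja1 averaged 199, 152, 177, 315, 201 and 167 CPM in knockout and 140.4, 161, 216, 381, 207 and 166 CPM in control. At CT13 its libraries had 295, 334, 276 and 356 CPM in knockout and 413, 398, 269 and 445 CPM in control. Dnajb1, the main HSP40 of the heat response, averaged 54.4, 40.7, 41.3, 66.3, 50.2 and 48.5 CPM in knockout and 38.6, 40.2, 43.2, 67.4, 55.4 and 51.3 CPM in control, with amplitudes of 0.18 ± 0.08 in knockout (adjusted p 0.183) and 0.37 ± 0.08 in control (adjusted p 0.000977). By the F test over times Dnajb1 did change in knockout (adjusted p 0.014). Dnajb4, Dnajb6 and Dnajc7 passed neither rhythm test, though Dnajb4 and Dnajb6 were called in control without the 5 libraries that stood apart. Dnaja4, at 1.24 CPM per kb in knockout and 1.32 CPM per kb in control, shares 44.1% of its exon bases with Wdr61 on the opposite strand.

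Among the BAG co-chaperones and small heat shock proteins, 2 of 5 genes were rhythmic in knockout (Bag1 and Hspb1), against 15% of all genes. In control 2 of 5 were (Bag3 and Hspb1), against 21.1% of all genes. Bag1, a nucleotide exchange factor of HSP70, averaged 172, 119, 116, 125, 127 and 167 CPM in knockout and 121, 109, 123, 120.5, 119.6 and 136 CPM in control. Its rhythm was called in knockout with a peak at CT22.5 (amplitude 0.29 ± 0.07, adjusted p 0.00926), and that call ended without the 5 libraries that stood apart (adjusted p 0.139). Knockout CT21 replicate 4, at 269 CPM beside 135, 129 and 134 CPM, and control CT21 replicate 1, at 207 CPM beside 112, 114 and 110.1 CPM, were the high ones. Bag3, the exchange factor of selective autophagy, averaged 36.3, 26.6, 31.7, 39.1, 34.0 and 33.8 CPM in knockout and 25.2, 33.1, 33.0, 45.3, 35.6 and 34.8 CPM in control, with a rhythm p adjusted to 0.41 in knockout and 0.0268 in control. The knockout rhythm of Bag3 was called without the 5 libraries that stood apart. Hspb1 (HSP27) averaged 10.3, 5.66, 6.98, 8.23, 12.2 and 9.59 CPM in knockout and 6.44, 6.98, 5.56, 10.5, 10.9 and 13.0 CPM in control. Its rhythm passed narrowly in knockout (adjusted p 0.0487, lost on removing any of 33 single libraries) and in control (adjusted p 0.00525). Hspb8 and Cryab, small heat shock proteins that are abundant in muscle, passed no rhythm test, and Cryab shares 17% of its exon bases with Hspb2.

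Of the factors that switch on the response, Hsf1 was called rhythmic in control and neither was in knockout. The amplitude of Hsf1 was 0.17 ± 0.07 in knockout (adjusted p 0.195) and 0.28 ± 0.07 in control (adjusted p 0.00949), with an adjusted p of 0.711 for the difference. Hsf1 libraries spanned 18.0 to 42.0 CPM in knockout and 17.8 to 35.4 CPM in control. Hsf2, a second heat shock factor, averaged 4.93, 6.64, 6.92, 7.84, 6.79 and 6.61 CPM in knockout and 8.11, 7.39, 6.78, 8.65, 7.59 and 7.03 CPM in control and passed no rhythm test. Of the CCT chaperonin, which folds actin and tubulin, Cct3 was rhythmic in both genotypes (amplitude 0.25 ± 0.06 in knockout and 0.27 ± 0.06 in control), Tcp1 in control only by its own test (adjusted p 0.402 in knockout, 0.0235 in control, 0.876 for the difference), and Cct2 in neither. Serpinh1 (HSP47), the collagen chaperone of the endoplasmic reticulum made largely by fibroblasts, averaged 54.8, 33.8, 35.6, 34.4, 71.6 and 51.4 CPM in knockout and 38.3, 36.3, 31.1, 55.2, 65.6 and 63.4 CPM in control. Serpinh1 peaked latest of the members rhythmic in both in knockout, at CT19.9, and at CT18.0 in control. Fibroblast and endothelial markers summed to 494 to 1008 CPM in knockout libraries and 647 to 1182 CPM in control libraries, and their part in the values of Serpinh1 was not tested.

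The cold-inducible genes peaked before the subjective night, ahead of the chaperones. Rbm3, an RNA-binding protein that rises with mild cooling, averaged 97.3, 122, 149.8, 145, 95.1 and 86.1 CPM in knockout and 111, 112, 160.0, 137, 93.2 and 83.9 CPM in control. At CT9 its libraries had 159, 159 and 131 CPM in knockout and 176, 156, 168 and 139 CPM in control, and at CT21 they had 90.9, 78.7, 78.7 and 96.0 CPM in knockout and 68.4, 83.6, 94.1 and 89.6 CPM in control. In both genotypes the CT9 libraries lay above all CT21 libraries. These are the times of its highest and lowest means in the same values, so the gap is not separate evidence of a rhythm. Amplitudes were 0.43 ± 0.06 in knockout (adjusted p 3.59e-05) and 0.41 ± 0.06 in control (adjusted p 4.13e-06), a difference of 0.02 with a 95% interval of -0.15 to 0.20. Peaks were CT9.58 in knockout and CT9.06 in control. Cirbp averaged 23.6, 38.4, 31.8, 21.0, 20.1 and 30.4 CPM in knockout and 35.7, 35.3, 34.6, 16.5, 19.1 and 26.2 CPM in control, lowest at CT17 in knockout and at CT13 in control. Its fitted peak was CT4.53 in knockout (amplitude 0.36 ± 0.12, adjusted p 0.0838) and CT3.80 in control (amplitude 0.58 ± 0.12, adjusted p 0.00182). The knockout rhythm of Cirbp passed without the 5 libraries that stood apart (adjusted p 0.00839). Control CT13 replicate 3, in which most chaperones were low, had the highest CT13 value of Cirbp, 24.4 CPM beside 13.7, 13.1 and 14.8 CPM.

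No member passed a test of a difference in rhythm or daily profile between the genotypes. The edgeR test of the rhythm difference called 0 of 40 members (1.57% of all genes), and 9 of 40 had an unadjusted p below 0.05, against 10.2% of all genes. The test of genotype by time called 0 of 40 (1.27% of all genes), with 10 of 40 below 0.05 unadjusted, against 11.8% of all genes. limma-voom and DESeq2 each called 0 in both tests. Adjusted p-values of the rhythm difference ran from 0.125 (Hspa8) to 1 (Trap1), and those of genotype by time from 0.136 (Hspa8) to 0.977 (Hspa4). Leaving out single libraries gave at most 2 calls of genotype by time, Hspe1 (0.0467) and Fkbp4 (0.0238) without knockout CT21 replicate 4, Hspe1 (0.0475) without knockout CT1 replicate 4, and Stip1 (0.0224) without control CT13 replicate 3.

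Estimates of amplitude and timing mostly had 1 sign among the 22 members rhythmic in both genotypes. The amplitude was lower in knockout for 20 of 22 members, against 61.9% of the 1139 genes rhythmic in both, with medians of 0.38 in knockout and 0.56 in control. Intervals of 95%, not adjusted for the number of genes, lay below 0 for 5 of these 22 members: Hspa8 (-0.42, -0.70 to -0.14), Hsp90aa1 (-0.38), Dnaja1 (-0.29), Stip1 (-0.26) and Cacybp (-0.25). The share of the 1139 genes with such an interval, for amplitude or for the peak, is not given here. No excess among the members can be read from these counts of intervals. Outside the 22, the interval lay below 0 for Dnaja2 (-0.14, -0.24 to -0.046) and above 0 for Bag1 (0.21, 0.017 to 0.40). The fitted peak was later in knockout for 21 of 22, against 73% of those 1139 genes, by a median of 1.09 h over the members and 0.93 h over those genes. Peaks of the 21 members other than Rbm3 ran from CT13.4 to CT19.9 with a median of CT17.1 in knockout, and from CT13.0 to CT18.0 with a median of CT16.0 in control. The interval of the peak difference lay above 0 h for Hspe1 (2.81 h, 0.800 to 4.81 h), Fkbp4 (2.42 h), Ahsa1 (2.12 h) and Stip1 (1.97 h). Delays of that size depended on the libraries used. Among members rhythmic in both, the largest delay was 1.38 h without the 5 libraries that stood apart and 0.87 h without CT1. Without the 5 libraries that stood apart 24 members were rhythmic in both, 19 of them with a lower amplitude in knockout and 21 later, by a median of 0.67 h, beside 60.8% lower, 68.2% later and a median of 0.76 h over all genes rhythmic in both. Without CT1 in either genotype, 21 of 24 had a lower amplitude in knockout and 17 of 24 were later, by a median of 0.48 h, beside 63% lower, 57.6% later and a median of 0.31 h over all such genes.

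**Figure D3:**
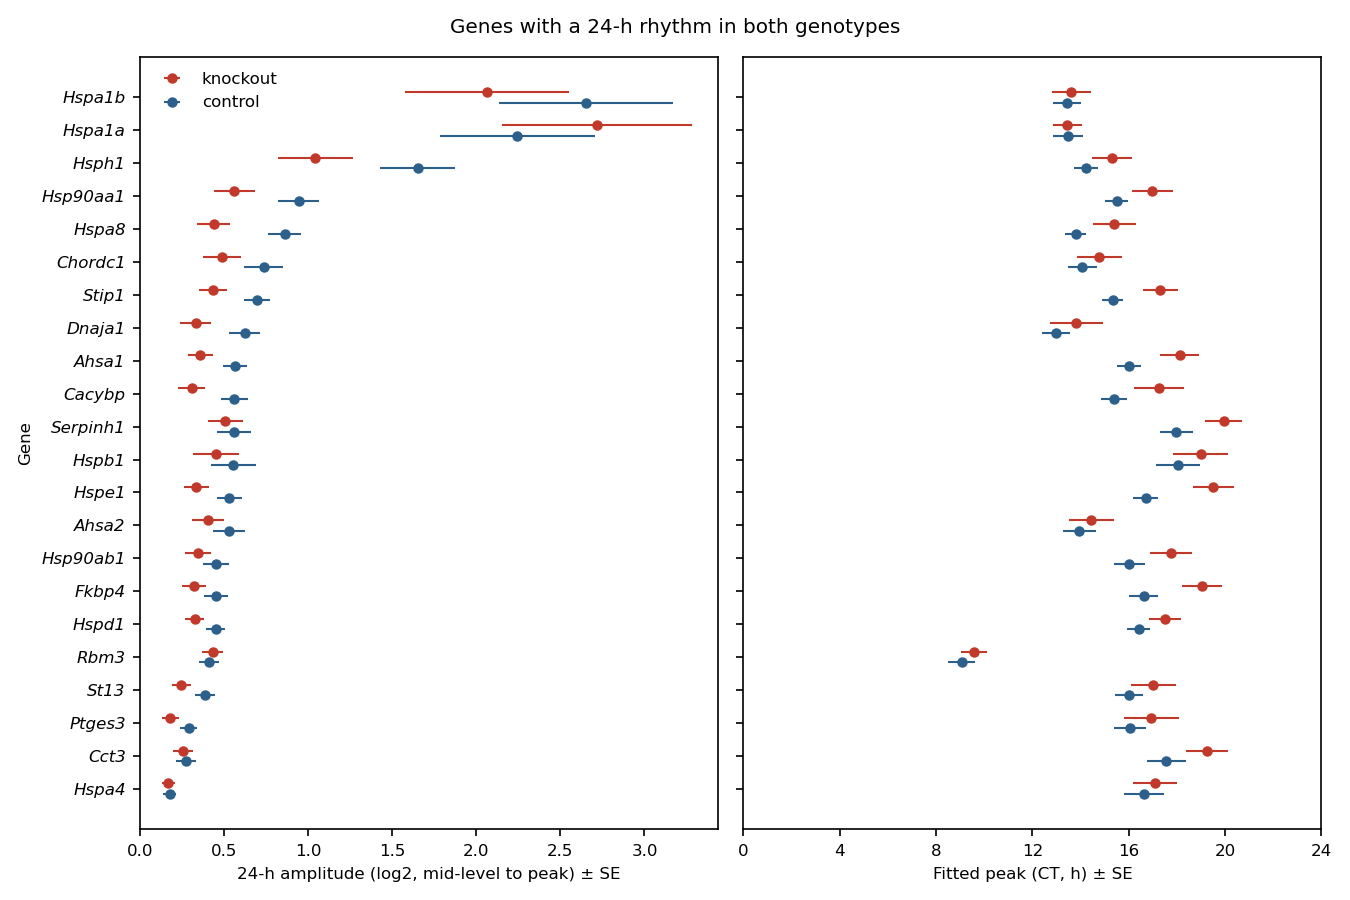
Amplitude (left, log2 distance from the middle of the fitted curve to its peak) and fitted peak time (right, hours of circadian time) with standard errors for the 22 members rhythmic in both genotypes, ordered by amplitude in control, knockout in red above control in blue. Amplitudes in knockout are below those in control for 20 of 22 genes, and peaks later for 21 of 22, Rbm3 peaks before CT12 in both genotypes.

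Averaged over the 6 times, few members differed between the genotypes. The test called 3 of 40 members, all higher in knockout, against 23.6% of all genes (12.4% higher and 11.3% lower). The median log2 fold change was 0.01 over the members and -0.01 over all genes tested. Members ran from -0.43 (Hspa1a) to 0.20 (Hspa9). Hspa9, the mitochondrial HSP70 that also pulls proteins through the inner membrane, averaged 478, 383, 409, 442, 442 and 454 CPM in knockout and 386, 320.4, 368, 401, 393 and 399.8 CPM in control. The libraries had 347 to 559 CPM in knockout and 296 to 437 CPM in control, and the ranges overlapped. Its difference was 0.20 (SE 0.04, adjusted p 0.000119), and the knockout mean was above the control mean at 6 of 6 times. Trap1, the HSP90 of mitochondria, averaged 112, 99.9, 104, 99.9, 103 and 103 CPM in knockout and 97.7, 93.4, 92.5, 94.0, 88.7 and 98.3 CPM in control, a difference of 0.14 (SE 0.04, adjusted p 0.00762). Dnajc7, a cochaperone with TPR repeats that binds HSP70 and HSP90, averaged 196, 192, 181, 198, 187 and 207 CPM in knockout and 183, 179.6, 183, 168, 171 and 187 CPM in control, a difference of 0.11 (SE 0.04, adjusted p 0.0218). The call of Dnajc7 ended with upper quartile scaling and without the filter. Without the 5 libraries that stood apart the differences were 0.17 for Hspa9, 0.10 for Trap1 and 0.13 for Dnajc7, all 3 still called, and Bag1 joined them at 0.09 (adjusted p 0.0287). Of stress-inducible genes that did not pass, the 95% intervals of the difference were -0.86 to 0.38 for Hspa1b, -0.41 to 0.29 for Hsph1, -0.22 to 0.18 for Hsp90aa1 and -0.07 to 0.14 for Hspd1.

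At CT1, early in the subjective day, 3 of the 4 knockout libraries were among those that stood apart, and 13 of 40 members rose in knockout. The test called 14 of 40 members, 13 higher and 1 lower in knockout, against 21% of all genes (12.8% higher and 8.24% lower). Hspa8 had 1641, 1062, 1746 and 1320 CPM in the knockout CT1 libraries and 876, 736, 680.4 and 844 CPM in the control CT1 libraries, and its difference was 0.88 (SE 0.20, adjusted p 0.00276). Fkbp4 had 345, 309, 415 and 263 CPM in knockout and 182, 219, 214 and 207 CPM in control, a difference of 0.70 (SE 0.15, adjusted p 0.00218). Hspe1 had 103, 152, 138 and 87.0 CPM in knockout and 74.5, 84.8, 69.2 and 76.1 CPM in control, a difference of 0.65 (SE 0.17, adjusted p 0.00554). Stip1 had 99.9, 94.3, 109 and 96.3 CPM in knockout and 69.5, 68.1, 60.0 and 71.7 CPM in control, a difference of 0.57 (SE 0.17, adjusted p 0.0152). In each of these 4 genes every knockout CT1 library was above every control CT1 library, a pattern that 9.18% of all genes had. The 4 genes were picked by the test on these same libraries, so the lack of overlap is not separate evidence.

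The other members called higher at CT1 are HSP90 and its partners, the mitochondrial Hspa9, and J-domain and BAG helpers of HSP70. Hsp90aa1 had 284, 412, 234 and 305 CPM in knockout and 190.3, 189, 179.7 and 209 CPM in control, a difference of 0.68 (adjusted p 0.0391). Ptges3 rose by 0.36 (adjusted p 0.0203), Ahsa1 by 0.49 (0.0258) and Cacybp by 0.43 (0.0422) on the log2 scale. Hspa9 had 495, 559, 424 and 431 CPM in knockout and 375, 423, 385 and 360.1 CPM in control, a difference of 0.31 (adjusted p 0.02). Bag1 had 174, 164, 213 and 137 CPM in knockout and 121, 130.3, 111 and 122 CPM in control, a difference of 0.51 (adjusted p 0.0221). Dnaja1 rose by 0.50 (0.0344), Dnajb1 by 0.50 (0.0246) and Bag3 by 0.53 (0.0491). Knockout and control libraries did not overlap for Hsp90aa1, Ptges3, Hspa9, Bag1 and Dnaja1, and overlapped for Ahsa1, Cacybp, Dnajb1 and Bag3. Hsf2 was the member that fell, with 3.41, 6.04, 3.25 and 7.04 CPM in knockout and 8.48, 9.04, 8.84 and 6.06 CPM in control, a difference of -0.72 (SE 0.22, adjusted p 0.0203), and its libraries overlapped. Hsph1 had the largest estimate, 0.97 (SE 0.43, adjusted p 0.101), and did not pass, although its 86.8, 45.1, 84.3 and 75.2 CPM in knockout lay above the 33.6, 37.2, 35.4 and 43.3 CPM in control. In all, 13 members had the 4 knockout libraries above the 4 control libraries, against 9.18% of all genes, and 9 of these were among the 13 called higher. No member had all 4 below, against 7.48% of all genes.

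Removal of the libraries that stood apart ended these calls. Without them knockout CT1 is represented by replicate 4 alone, whose spread is then taken from the other groups, and 0 of 40 members were called, against 0.275% of all genes. The estimates of that fit were 0.72 for Hspa8, 0.63 for Hsp90aa1, 0.48 for Stip1, 0.48 for Dnajb1, 0.40 for Dnaja1, 0.32 for Fkbp4, 0.16 for Hspe1 and -0.24 for Hsf2. Replicate 4 was part of the test that chose the 13 members called higher, so its place for these is not separate evidence. The replicate lay above all 4 control libraries for all 13 of them, and for 23 of 40 members in all, against 30.3% of all genes. It lay below all 4 for 5 members, Cct3, Cirbp, Cryab, Hspb8 and Rbm3, against 24.9% of all genes. Calls at CT1 numbered 3 without knockout CT1 replicate 1 and 8 without the filter on low counts. In knockout CT1 replicates 1, 2 and 3, longer genes had lower relative levels (slopes of -0.11, -0.13 and -0.21 on log2 exon length), against 0.02 in replicate 4, and mitochondrially encoded RNA made up 5.08, 7.34 and 2.67% of counts, against 4.96% in replicate 4. Of markers at CT1, 4 of 8 epithelial genes rose, against 12.8% of all genes. In contrast 6 of 10 fibroblast and endothelial genes and 6 of 10 T cell genes fell, against 8.24% of all genes. The share of the CT1 differences that goes with these features was not tested.

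**Figure D4:**
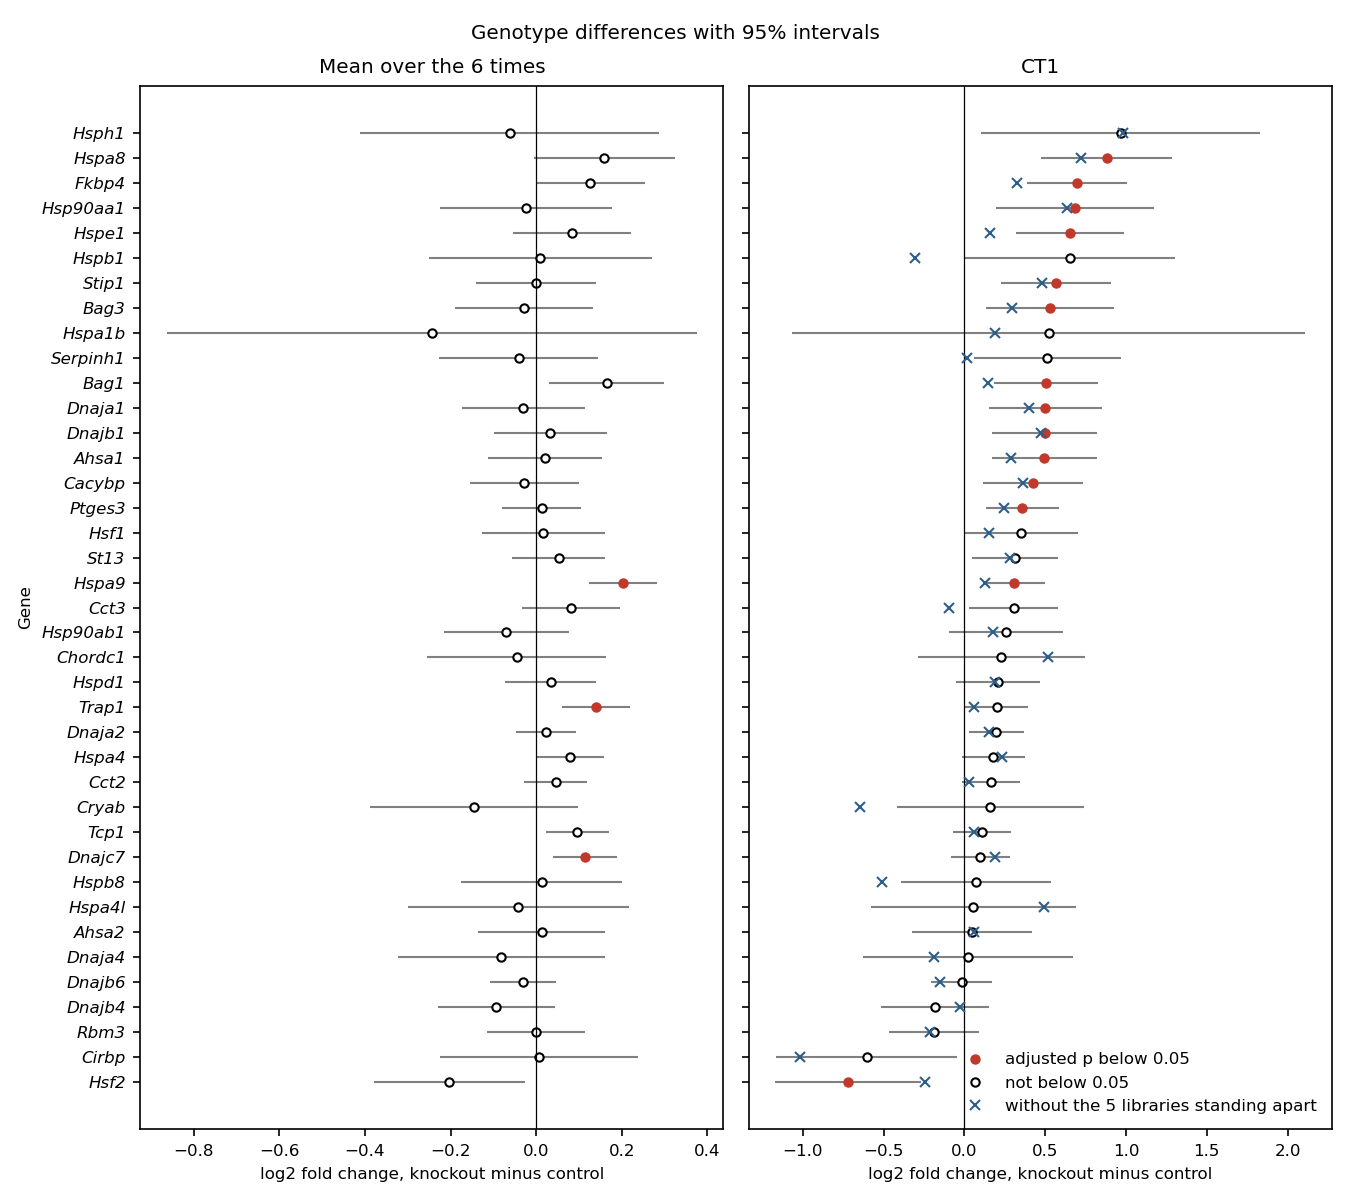
Log2 fold change, knockout minus control, with 95% intervals for 39 members as the mean over the 6 times (left) and at CT1 (right), ordered by the CT1 value, Hspa1a left out. Filled red points have an adjusted p below 0.05 and blue crosses give the CT1 value without the 5 libraries that stood apart. On the left 3 points are filled, Hspa9, Trap1 and Dnajc7. On the right 14 are filled, and the crosses of most of them lie nearer to 0.

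At the other times no member differed between the genotypes by the main test. edgeR called 0 of 40 at CT5 (0.901% of all genes), CT9 (4.01%), CT13 (3.48%), CT17 (2.23%) and CT21 (1.45%), with 3, 1, 7, 2 and 0 members below 0.05 unadjusted (7.69, 12.8, 14.7, 11.9 and 10.4% of all genes), and limma-voom and DESeq2 called 0 at each. At CT13, the peak, 31 of 40 estimates were negative, none of them called (1.41% of all genes were called lower), with a median of -0.22, against a median of -0.01 over all genes. The lowest adjusted p at CT13 was 0.0869, for Serpinh1, which had 40.8, 27.8, 29.1 and 39.95 CPM in knockout and 65.8, 70.8, 32.9 and 51.3 CPM in control. Stip1 followed, with 130.3, 123, 95.5 and 122 CPM in knockout and 187, 184, 102 and 181 CPM in control, a difference of -0.47 (SE 0.16, adjusted p 0.109). Control CT13 replicate 3 was the low control library for both genes. Without control CT13 replicate 3 the differences were -0.86 for Serpinh1 (adjusted p 0.0178), -0.64 for Stip1 (0.0112) and -0.60 for Hsp90ab1 (0.0283), and these 3 members passed. That library was singled out because the members were low in it, so its removal raises their control means by choice. These passes are therefore not separate evidence, and the share of all genes called without it is not given here. Without the 5 libraries that stood apart 2 of 40 members passed at CT13, against 7.73% of all genes. They were Serpinh1 at -0.68 (adjusted p 0.0307) and Dnajc7 at 0.23 (0.031). At CT21 Bag1 passed at 0.56 (adjusted p 0.0238) when control CT21 replicate 1 was left out, and 0 members were called lower at CT21 (0.767% of all genes).

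Related genes outside the 40, read from lists by function, included several that rose in knockout. Of 14 genes of mitochondrial protein quality control, 8 rose and none fell over all times, with a median of 0.23, where 12.4% of all genes tested rose, 11.3% fell and the median was -0.01. The difference was 0.31 (SE 0.04, adjusted p 3.71e-07) for Dnaja3, a J-domain partner of Hspa9. Clpx, which unfolds clients of the matrix protease CLPP, differed by 0.31 (SE 0.05, adjusted p 5.66e-06), and the prohibitin Phb by 0.29 (SE 0.07, adjusted p 0.00108). Of 11 other CCT and prefoldin subunits, 3 rose, Pfdn1 (0.29), Pfdn5 (0.24) and Cct4 (0.14). Of 29 further genes of the HSP70, HSP40 and HSP90 network that passed the filter, 3 rose and 1 fell: the co-chaperone Sugt1 (0.19), Dnajc2 (0.17) and Hsbp1, which binds HSF1 (0.16), with Hspa12a the one that fell. Hspa12a, a distant HSP70 relative, differed by -1.19 (SE 0.10, adjusted p 5.12e-12). Of 12 CLK kinases and splicing factors, a class that responds to temperature, 3 fell, Clk4 (-0.20), Clk3 (-0.17) and Hnrnpdl (-0.14). Over the day 15% of all genes were rhythmic in knockout and 21.1% in control, shares that the following counts can be set beside. The other CCT and prefoldin subunits had 3 rhythmic genes of 11 in knockout and 5 in control, where Cct8 peaked at CT17.5, Cct7 at CT17.6 and Cct5 at CT17.4. In the HSP70, HSP40 and HSP90 network 9 of 29 were rhythmic in knockout and 6 in control, led in control by Cdc37l1 (amplitude 0.45 ± 0.09, peak CT12.7), Dnajb2 (0.36 ± 0.07, CT16.6) and Dnajb12 (0.21 ± 0.05, CT3.38). Mitochondrial quality control had 3 rhythmic genes in knockout and 1 in control, Clpb. CLK kinases and splicing factors had 4 of 12 in each genotype, with Tra2a at an amplitude of 0.30 ± 0.06 in knockout (peak CT14.2) and 0.35 ± 0.06 in control (peak CT14.8), near the peaks of Hsph1.

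One of 6 other genes known to be induced by HSF1 differed in rhythm between the genotypes. Ier5, an immediate-early gene that promotes HSF1 activity, averaged 75.8, 61.4, 70.6, 71.4, 64.6 and 76.2 CPM in knockout and 52.7, 39.2, 27.0, 42.4, 56.2 and 70.4 CPM in control. At CT9 its libraries had 76.3, 60.1 and 75.4 CPM in knockout and 24.97, 24.1, 29.7 and 29.3 CPM in control, without overlap. Its difference over all times was 0.60 (SE 0.06, adjusted p 4.68e-11). The amplitude was 0.07 ± 0.06 in knockout and 0.60 ± 0.06 in control, with a peak at CT20.6 in control, and the rhythms differed (adjusted p 0.000492). Zfand2a, another HSF1-induced gene, was rhythmic in control with a peak at CT19.6 (amplitude 0.36 ± 0.08, adjusted p 0.00183), and no difference from knockout was detected (adjusted p 0.823).

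Markers of immune cells were lower in knockout tissue. Over all times 12.4% of all genes tested were called higher and 11.3% lower, the shares to set beside the marker counts below. Fewer cells of a type and less RNA per cell cannot be told apart in whole tissue. T cell and intraepithelial lymphocyte markers fell (10 of 10), with summed levels of 54.8 to 124 CPM in knockout libraries and 103 to 393 CPM in control libraries, as did B and plasma cell markers (9 of 10, at 278 to 1163 CPM in knockout and 535 to 1394 CPM in control). Myeloid and mast cell markers had 3 of 8 lower and 1 higher, and fibroblast and endothelial markers 3 of 10 lower. Epithelial markers, present at 17747 to 28092 CPM in knockout and 16221 to 26561 CPM in control, had 1 of 8 higher (Sis), crypt markers had 1 higher and 1 lower of 10, and smooth muscle (10 genes) and enteric neurons and glia (7 genes) had no call. Immediate-early genes, often raised by handling of tissue, had 1 of 11 higher (Fosb). No marker was at 0 in all libraries. How far these cells contribute to the members' values was not tested.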

How the data were processed

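The 40 genes and all lists were chosen with earlier results of these data known, so no list or test here is independent of them. RNA of whole jejunum was extracted with a NucleoSpin RNA kit and made into libraries with a TruSeq Stranded mRNA kit, per the labels' protocols. The authors deposited raw counts per gene. The submitters' processing notes name Trimmomatic 0.39, STAR 2.7.5c, SAMtools 1.3.1, featureCounts 1.4.6, FastQC 0.11.5, DESeq2 1.22.0 and the mouse build mm10. For the annotation release, the strand setting and multimapping reads, the value is not given in the sources used here. Of 48 samples in the labels 47 had a column of counts, and knockout CT9 replicate 1 was not analysed here.

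Counts were tested as deposited with edgeR 4.0.16 in R 4.3.3 by its robust quasi-likelihood test, with TMM scaling, filterByExpr on the 12 groups (15646 genes kept) and Benjamini-Hochberg adjustment of each test over all genes kept. The group-means fit had 35 residual degrees of freedom and served the genotype tests (over all times, and at each time) and the F tests over time. The rhythm fit, with cosine and sine of 24 h per genotype, had 41. A difference was called at an adjusted p below 0.05, and fold changes are knockout minus control on the log2 scale. Intervals of amplitude and peak differences are unadjusted 95% intervals from that fit. CPM use the scaled totals, and CPM per kb divides by exon length. Library totals of 4.34 to 6.91 M counts put the floor of 3 counts at 0.434 to 0.692 CPM, which covers counting error only. Gene positions and exon lengths come from GENCODE M21 on mm10, which matched 54349 identifiers with their version and 792 without it, while 260 had no match.

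Members described with values in every group are those that passed a genotype or rhythm-difference test and the 8 with the largest amplitude among those rhythmic in each genotype. Hspd1, Cirbp and Rbm3 fall outside this rule and were added after their values were seen. From other lists, up to 3 genes with the largest called differences and up to 3 with the largest called control amplitudes are named, and of marker lists mainly counts are given. Any pair of libraries differed beyond sampling noise (chi-square over genes at least 3.51 per degree of freedom), so none was counted as a repeat. Scripts were tested on simulated counts with known changes. Alternatives were DESeq2 size factors, upper quartile scaling, no filter, limma-voom (limma 3.58.1), DESeq2 1.42.0 and leaving out each library. Leaving out the 5 libraries that stood apart, and CT1 for the rhythms, was chosen after seeing the data.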

Additional observations from a re-analysis of the deposited data

Results flagged for a closer look

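In 35 of 440 groups of 4 libraries 1 library stood far from the other three, with a gap to its nearest neighbour, as a share of the group's range, above the 95% critical value of Dixon's test, which chance alone gives in about 1 of 20 groups. Control CT9 replicate 4 was the high library for Hspa1b (7.91 CPM, next 1.76), Hsph1 (186, next 51.2), Hspd1 (468, next 317), Hsp90aa1 (403, next 182), Fkbp4 (267, next 201) and Ahsa1 (72.7, next 53.8). Control CT13 replicate 3 was the low library for Hspa8 (1781 CPM, next 2866), Hsph1 (163, next 477), Hspd1 (409, next 529.5), Hsp90aa1 (319, next 659) and Stip1 (102, next 181), and the high one for Cirbp (24.4, next 14.8).

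Among libraries that stood apart over all genes, knockout CT21 replicate 4 was high for Bag1 (269 CPM) and Dnajc7 (231 CPM), and control CT21 replicate 1 was high for Bag1 (207 CPM), Hspb1 (20.04 CPM) and Cryab (18.0 CPM). Knockout CT1 replicate 3 was high for Serpinh1 (86.9 CPM) and Dnaja4 (4.55 CPM).

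Single values elsewhere in knockout were high for Hspa1b at CT17 (replicate 3, 8.99 CPM), Hspa4 at CT13 (replicate 1, 261 CPM), Hspa4l at CT5 (replicate 1, 19.4 CPM) and Hspb8 at CT21 (replicate 2, 16.2 CPM). They were low for Cacybp at CT13 (replicate 3, 52.3 CPM), Dnaja4 at CT5 (replicate 4, 2.86 CPM) and CT17 (replicate 4, 3.39 CPM), Dnajb1 at CT5 (replicate 4, 34.7 CPM), Dnajb6 at CT17 (replicate 1, 56.0 CPM), Cirbp at CT5 (replicate 2, 28.8 CPM) and Rbm3 at CT13 (replicate 1, 130 CPM). In control they were high for Hspa1a at CT9 (replicate 1, 1.01 CPM), Ptges3 at CT5 (replicate 3, 79.6 CPM) and Dnaja4 at CT17 (replicate 4, 7.68 CPM), and low for Hsp90ab1 at CT5 (replicate 1, 677 CPM) and Tcp1 at CT21 (replicate 4, 128 CPM).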

How the results depend on the processing

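The rhythm counts kept within 1.5 times of the reported ones under every setting tried, at 19 to 24 members in knockout and 29 to 33 in control. Genotype over all times called 2 to 4 members. At CT1 the count was 8 without the filter and 0 without the 5 libraries that stood apart, a setting that leaves 1 knockout library at CT1, and at CT13 it was 2 in that setting. The cause was not tested. No member's called direction reversed. Leaving out single libraries gave 3 to 6 members over all times, 3 (without knockout CT1 replicate 1) to 17 (without knockout CT1 replicate 4) at CT1, 0 to 3 at CT13, 0 to 1 at CT21 and 0 at CT5, CT9 and CT17. It gave 20 to 25 members for change over time in knockout and 26 to 31 in control, 0 to 2 for genotype by time, 20 to 25 for the rhythm in knockout, 28 to 31 in control and 19 to 23 in both, and 0 to 1 for the rhythm difference. Over all times, Bag1, Hsf2 and Tcp1 joined without knockout CT1 replicate 4, and Hspa8 and Tcp1 without control CT9 replicate 4. Of rhythm calls in knockout, those of Hspb1 and Ptges3 ended without 33 and 11 single libraries.

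No paired analysis was possible because the labels number no replicates, and numbers given in accession order pair nothing. Low counts limit Hspa1a, which lay near the floor of 3 counts outside CT13.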
